A study of Caenorhabditis elegans with 2 samples.

Results

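Aminoacyl-tRNA synthetases are the enzymes that join each amino acid to its transfer RNAs, the step that supplies the ribosome with charged tRNA. The cytosol and the mitochondria both translate, so animals need this charging in both compartments. For some amino acids separate nuclear genes encode the enzymes of the 2 compartments, and for others a single gene serves both. The Caenorhabditis elegans genes are named by the letter of the amino acid followed by ars and a number. Members were all protein-coding genes of the Ensembl WBcel235 annotation whose symbol has that form, which gave 32 of 19973 protein-coding genes. They cover 20 amino acids. The number 1 is carried by 20 members, the number 2 by 11, and fars-3 alone carries the number 3.

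The measurements are chromatin immunoprecipitation sequencing (ChIP-seq) of SMA-3, a Smad protein that carries the DBL-1 (BMP-like) signal for body size into the nucleus. The 2 biological replicates form 1 group, whole L2 hermaphrodites of strain CS152, taken 24 hours after synchronisation by L1 starvation. They carried the sma-3 mutation wk30 together with the integrated array qcIs, which holds a gfp and sma-3 fusion and rol-6, and the fusion protein was precipitated with an antibody to GFP. The labels give the tag as a C-terminal GFP-FLAG fusion, although the transgene is written with gfp first. No promoter is named for the fusion, so the cells that made it are not known from the labels. There is no second condition and no untagged precipitation analysed here, so recovery of promoters without SMA-3 cannot be told apart from recovery with it at any gene below.

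The lists of regions on ce11 were 30000 long for either replicate and for the pool of both. The optimal list is the 4205 highest by signal in the pool. Signal is the authors' value per region. How it was scaled is not stated in the labels or files, so it only ranks and describes regions within a list, and rank 1 is the highest. In the optimal list it ran from 70.1 to 1762, with a median of 121. Depth is unknown, so the intervals below cover counting of genes only. A gene was counted as having a promoter peak when the summit of an optimal peak lay between 1000 bp upstream and 200 bp downstream of any of its annotated start sites. Annotated starts of worm genes often mark the site of trans-splicing and not the place where transcription begins.

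Of the 32 synthetase genes, 10 had an optimal promoter peak (31.3%, 95% exact Clopper-Pearson interval 16.1 to 50.01%), where 14.3% of all protein-coding genes had one. They were ears-2, mars-1, kars-1, nars-1, vars-1, aars-1, yars-2, fars-1, rars-1 and tars-1, in order of signal. Their peaks were mostly of modest rank. The median signal of the 10 was 109, and the median over all 2863 genes with a promoter peak was 137. The median rank was 2454 for the synthetase genes and 1755 for all genes with a peak. No set test was run, because the genes were chosen with earlier results of these data known.

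**Figure D1:**
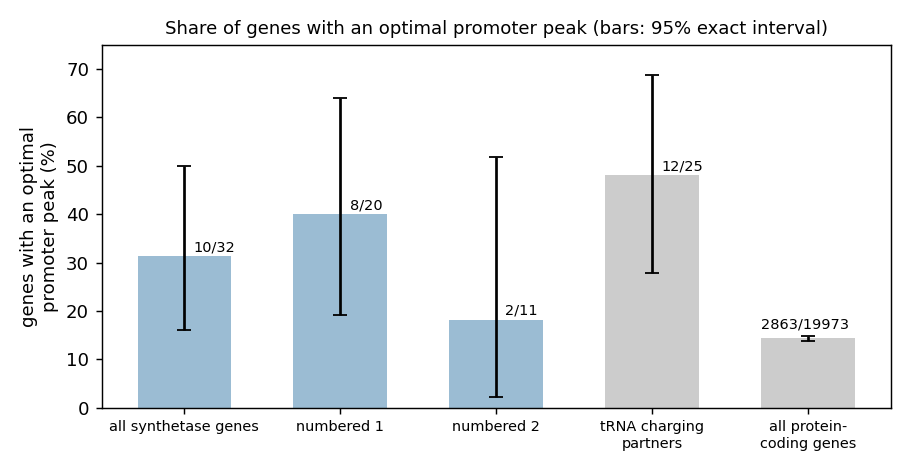
Share of genes with an optimal promoter peak, in percent, for all synthetase genes, those numbered 1, those numbered 2, 25 genes of tRNA charging and its neighbours, and all protein-coding genes. Error bars are 95% exact intervals over genes, and the fractions give the counts, from 10 of 32 synthetase genes to 2863 of 19973 genes.

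The sequence under 5 of these peaks is shown to let the promoters be compared, from the RefSeq sequence of WBcel235 (the ce11 build). These are the 3 with the highest signal and the 2 that hold GTCTG, a Smad-type sequence. Each runs 5′ to 3′ along the strand of its gene, from up to 75 bp before the summit to 75 bp after it, and stops where an annotated exon begins. Capitals mark the sequences searched for on both strands. Of Smad-type sequences GTCTG was searched for, with its extended form CAGACA. Another sequence reported for Smad proteins, rich in G and C, is GGCGC. For comparison the E-box CACGTG was included. A repeat common in worm promoters, GAGAGA, was added. The last was TGATAA, the form that GATA factors bind. CAGACA contains the reverse complement of GTCTG. The ears-2 stretch is chrIV:390469-390559 on the minus strand. The mars-1 stretch is chrIV:11635722-11635872 on the minus strand. The kars-1 stretch is chrII:7072709-7072859 on the minus strand. The vars-1 stretch is chrV:8031295-8031410 on the plus strand. The aars-1 stretch is chrII:11464551-11464701 on the minus strand.
ears-2: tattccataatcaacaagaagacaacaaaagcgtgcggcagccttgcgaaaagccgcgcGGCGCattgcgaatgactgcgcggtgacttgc
mars-1: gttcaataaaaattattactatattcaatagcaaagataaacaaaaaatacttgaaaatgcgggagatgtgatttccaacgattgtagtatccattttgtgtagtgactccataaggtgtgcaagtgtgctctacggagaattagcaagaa
kars-1: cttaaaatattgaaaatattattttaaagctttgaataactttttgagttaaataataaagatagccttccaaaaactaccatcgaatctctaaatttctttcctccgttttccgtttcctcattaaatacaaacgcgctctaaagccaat
vars-1: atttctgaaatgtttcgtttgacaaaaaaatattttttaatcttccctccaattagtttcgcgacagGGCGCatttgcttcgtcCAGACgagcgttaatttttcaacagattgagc
aars-1: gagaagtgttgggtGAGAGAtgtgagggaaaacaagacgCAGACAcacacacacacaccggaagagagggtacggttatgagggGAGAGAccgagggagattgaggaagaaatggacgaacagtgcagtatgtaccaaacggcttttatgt

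These sequences differ from each other. The ears-2 stretch is the whole gap between ears-2 and the divergent gene uncp-18, and it holds GGCGC with its first base 4 bp before the summit. Past the annotated start of ears-2, within 75 bp of the summit, GGCGC occurs at 2 further places, on the other strand. The vars-1 stretch holds GGCGC 8 bp before the summit and GTCTG on the other strand 9 bp after it. The aars-1 stretch holds CAGACA 36 bp before the summit and GAGAGA at 2 places. The mars-1 and kars-1 stretches hold none of the 6 sequences and are rich in A and T, with 33.1% and 28.5% GC within 75 bp of the summit, where ears-2 had 51.0% and aars-1 49.7%. The vars-1 window had 34.4% GC, close to mars-1, and holds both GGCGC and GTCTG.

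Over the 10 members with a peak, GTCTG was within 75 bp of the summit in 2 (20%), against 24.3% of all 4205 optimal peaks. GGCGC was in 3 (30%), in ears-2, vars-1 and fars-1, against 23.5% of all optimal peaks. CAGACA was in 1 (10%), against 12.7%, and GAGAGA was in 2 (20%), at aars-1 and rars-1, against 31.7%. CACGTG and TGATAA were in 0 of 10, against 9.44% and 18.9% of all optimal peaks. A count of 0 in 10 windows allows a share of up to 30%, which is above both. The median GC content of the members' windows was 43.0%, which was also the median over all optimal peaks. In windows of about 2 times the width it was 35.4%, against 39.2% over all optimal peaks. These shares were not tested, and each rests on 10 windows.

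The glutamyl-tRNA synthetase gene ears-2, named as mitochondrial in RefSeq, had by far the highest signal of the members. Its peak (IV, 390361 to 390613) ranked 113 in the pooled list with a signal of 507. The overlapping regions ranked 94 in replicate 1 (signal 223) and 110 in replicate 2 (signal 297). The replicates thus placed it at nearly the same rank. The summit lay 28 bp upstream of ears-2 and 64 bp upstream of uncp-18, whose start is 92 bp away on the opposite strand, so the peak cannot be given to either gene alone.

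The cytoplasmic methionyl-tRNA synthetase gene mars-1 came next. Its peak (IV, 11635694 to 11635859) ranked 661 with a signal of 238, and the overlapping regions ranked 1026 in replicate 1 (signal 79.5) and 534 in replicate 2 (signal 157). The summit lay 310 bp upstream of mars-1, within the window of the divergent gene F58B3.6 as well, but 851 bp from that start. A weaker pooled region, ranked 4661, lay 513 bp upstream of mars-1. The mars-1 call is therefore nearer its own start site than that of its neighbour.

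The lysyl-tRNA synthetase gene kars-1 had a peak in its own window alone (II, 7072657 to 7072952). It ranked 1161 with a signal of 177, and the overlapping regions ranked 998 in replicate 1 (signal 80.6) and 1261 in replicate 2 (signal 99.5). The summit lay 369 bp upstream, and the nearest gene upstream, kat-1, is divergent with a gap of 1399 bp. The peaks of ears-2 and kars-1 were found in all 11 alternative peak sets, windows and assignments tried.

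The asparaginyl-tRNA synthetase gene nars-1, the valyl-tRNA synthetase gene vars-1 and the mitochondrial alanyl-tRNA synthetase gene aars-1 had peaks of middle rank. At nars-1 (I, 7090202 to 7090601) the peak ranked 1823 with a signal of 133, and ranked 3706 in replicate 1 (signal 34.2) and 1385 in replicate 2 (signal 94.7). Its summit lay 340 bp from nars-1 and 338 bp from the divergent respiratory chain gene nduf-6, so the nearest start was that of nduf-6 by 2 bp. At vars-1 (V, 8031170 to 8031569) the peak ranked 2391 with a signal of 112, and ranked 3133 in replicate 1 (signal 38.8) and 2244 in replicate 2 (signal 69.1). The summit was 41 bp upstream of vars-1, in no other window, and 197 bp separate vars-1 from oma-2, the gene before it on the same strand. At aars-1 (II, 11464426 to 11464825) the peak ranked 2517 with a signal of 107, and ranked 3434 in replicate 1 (signal 36.3) and 2113 in replicate 2 (signal 71.9). Its summit lay 129 bp upstream of aars-1 and 268 bp from the divergent gene rga-1. All 3 ranked higher in replicate 2 than in replicate 1, and within the highest 4205 in both.

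The remaining 4 peaks ranked from 2994 to 4087. The tyrosyl-tRNA synthetase gene yars-2 (IV, 4712418 to 4712817) had a peak ranked 2994 with a signal of 93.5, ranked 5751 in replicate 1 (signal 23.7) and 2356 in replicate 2 (signal 66.9). Its summit lay 6 bp past an annotated start, in an untranslated exon of the gene, and in no other gene's window. The yars-2 call thus rested mainly on replicate 2. At fars-1 (I, 6215394 to 6215793), which encodes a phenylalanyl-tRNA synthetase subunit, the peak ranked 3018 with a signal of 92.9, ranked 1918 in replicate 1 (signal 54.5) and 4202 in replicate 2 (signal 42.6). The arginyl-tRNA synthetase gene rars-1 (III, 4917956 to 4918355) had a peak ranked 3438 with a signal of 83.4, ranked 3150 in replicate 1 (signal 38.7) and 4409 in replicate 2 (signal 40.8). The threonyl-tRNA synthetase gene tars-1 (II, 11695517 to 11695916) had a peak ranked 4087 with a signal of 72.0, ranked 3925 in replicate 1 (signal 32.6) and 4451 in replicate 2 (signal 40.5). Thus rars-1 and tars-1 lay just outside the highest 4205 of replicate 2.

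The fars-1 and rars-1 summits lay far from the synthetase genes, at 909 and 979 bp upstream, near the edge of the window. The nearest starts were those of other genes. The fars-1 summit was 133 bp from the start of rbm-5 and lay in an untranslated exon of another gene, T08B2.15. The rars-1 summit was 148 bp from the start of rpb-8. That gene encodes an RNA polymerase subunit and lies before rars-1 on the same strand with a gap of 66 bp. The tars-1 summit lay 60 bp upstream, inside an intron of kel-1, and 454 bp from the start of xpf-1. In all, 7 of the 10 peaks lay in a window of another protein-coding gene too. Of the 2357 optimal peaks in promoter windows, 28.6% were likewise shared between genes. That share is per peak, whereas the 10 were reached through genes, which favours shared peaks. The shares are therefore not directly comparable, and a share per gene was not computed. Of the 10 peaks, 7 had the synthetase start as the nearest. With each peak given to the nearest start site alone, 7 of 32 members kept a peak (21.9%), against 10.9% of all protein-coding genes, and fars-1, nars-1 and rars-1 lost theirs. No interval was computed for this smaller count, and the difference was not tested.

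**Figure D2:**
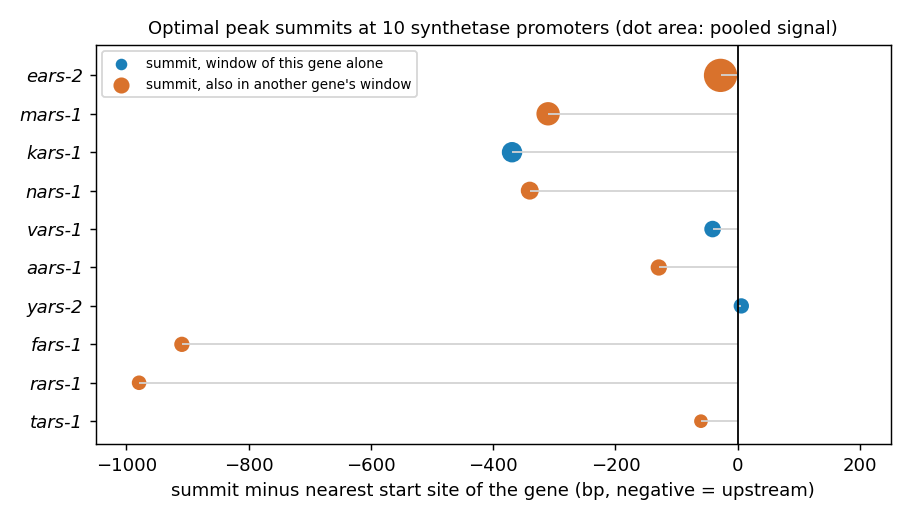
Position of the optimal peak summit at the 10 synthetase genes with a promoter peak, in bp from the nearest annotated start site of the gene, with upstream to the left. Dot area follows pooled signal, from 507 at ears-2 to 72.0 at tars-1, and 7 of the summits lay in a window of another gene as well, with fars-1 and rars-1 farthest away, at 909 and 979 bp.

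Of the other 22 members, 14 had a weaker region of the pooled list in a promoter window and 8 had none. Thus 24 of 32 members had any pooled region (75%, interval 56.6 to 88.5%), against 41.5% of all protein-coding genes. The median rank of the best region was 5242 over the 24 members and 7044 over all genes with a region.

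Just below the threshold came dars-1, for the cytoplasmic aspartyl-tRNA synthetase, and sars-2, a seryl-tRNA synthetase gene. The dars-1 region ranked 4850 with a signal of 61.8, and ranked 6499 in replicate 1 and 5159 in replicate 2. Its summit lay 60 bp from the start of ctr-9 and 121 bp from that of dars-1. The sars-2 region ranked 5027 with a signal of 59.8, and ranked 2970 in replicate 1 and 9573 in replicate 2, so the replicates stood apart. The region of aars-2, the cytoplasmic alanyl-tRNA synthetase gene, ranked 5456, with 12138 in replicate 1 and 4149 in replicate 2.

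The best regions of cars-1, hars-1, fars-3, qars-1 and iars-2 ranked between 6167 and 9477. Those of sars-1, iars-1, gars-1, lars-1, pars-2 and nars-2 ranked between 12723 and 25813. At the glycyl-tRNA synthetase gene gars-1 the pooled rank depended on the edge of the window. A pooled region ranked 6341 (III, 5163220 to 5163619) had its summit 207 bp downstream of the start, past the limit of 200 bp, and without it the best pooled rank was 17289. The best regions in the gars-1 windows ranked 5105 in replicate 1 and 5397 in replicate 2. No pooled region lay in the windows of dars-2, ears-1, fars-2, lars-2, pars-1, rars-2, wars-1 or yars-1. In the replicate lists, rars-2 had a region in replicate 1, ranked 15162, and wars-1 in replicate 2, ranked 25374, and the other 6 had none in either.

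**Figure D3:**
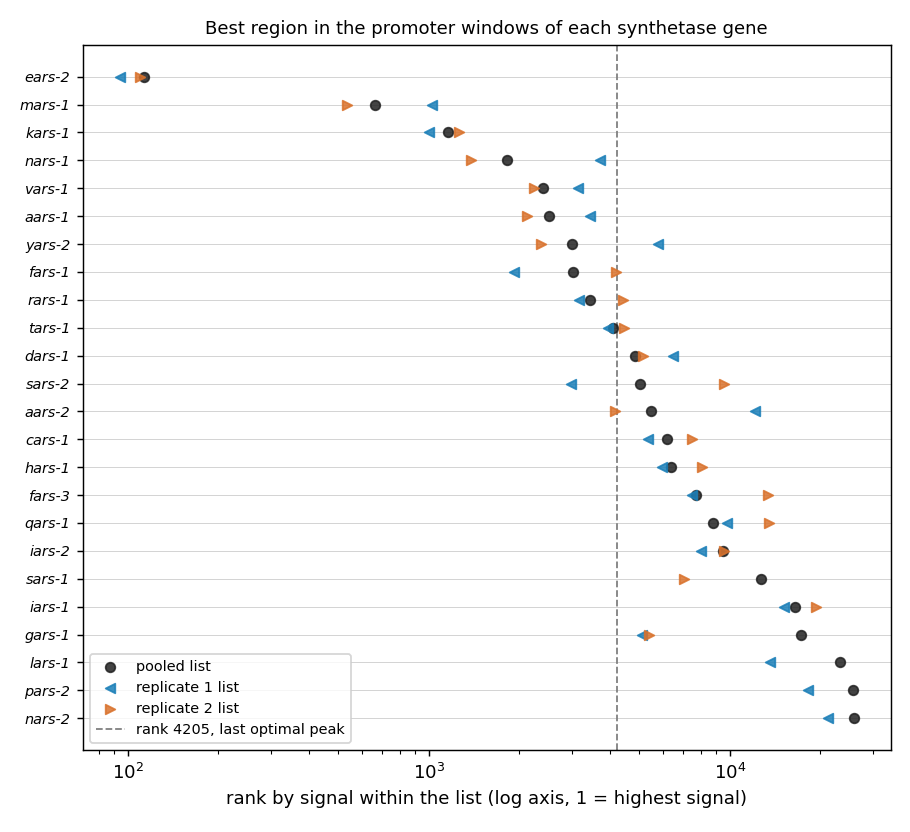
Rank of the best region in the promoter windows of the 24 synthetase genes with a pooled region, in the pooled list, in replicate 1 and in replicate 2, on a log axis where 1 is the highest signal. The dashed line marks rank 4205, the last optimal peak, and ears-2 stands apart at ranks 94 to 113 while the other 9 called genes run from 661 to 4087 in the pooled list. A list with no region for a gene has no symbol in its row.

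The division by number was compared next, since number 1 is commonly used for the cytosolic and number 2 for the mitochondrial enzyme. Of 20 genes numbered 1, 8 had an optimal promoter peak (40.0%, interval 19.1 to 63.9%), and of 11 numbered 2, 2 had one (18.2%, interval 2.28 to 51.8%), ears-2 and yars-2. Of all protein-coding genes 14.3% had one, which is near the share of the genes numbered 2. The intervals overlap over most of their length, and the difference was not tested. By the list of replicate 2 alone the shares were close, 6 of 20 (30%) and 3 of 11 (27.3%). By that of replicate 1 alone they were again 8 of 20 and 2 of 11. Any region of the pooled list was present for 16 of 20 genes numbered 1 (80%) and for 7 of 11 numbered 2 (63.6%), against 41.5% of all protein-coding genes.

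Within 11 amino acids that have both numbers, 4 of 11 genes numbered 1 (36.4%) and 2 of 11 numbered 2 (18.2%) had a peak, against 14.3% of all protein-coding genes. With so few peaks, nothing is read from the absence of a pair with both. Only the gene numbered 1 had a peak for alanine, phenylalanine, asparagine and arginine, 4 pairs in all. Only the gene numbered 2 had a peak for glutamate and tyrosine, 2 pairs. Neither had one for aspartate, isoleucine, leucine, proline and serine, 5 pairs. By best pooled rank, the gene numbered 1 stood higher in 6 pairs and the gene numbered 2 in 5. The widest contrast was glutamate, where ears-1 had no pooled region and ears-2 ranked 113. For asparagine, nars-1 ranked 1823 and nars-2 ranked 25813.

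**Figure D4:**
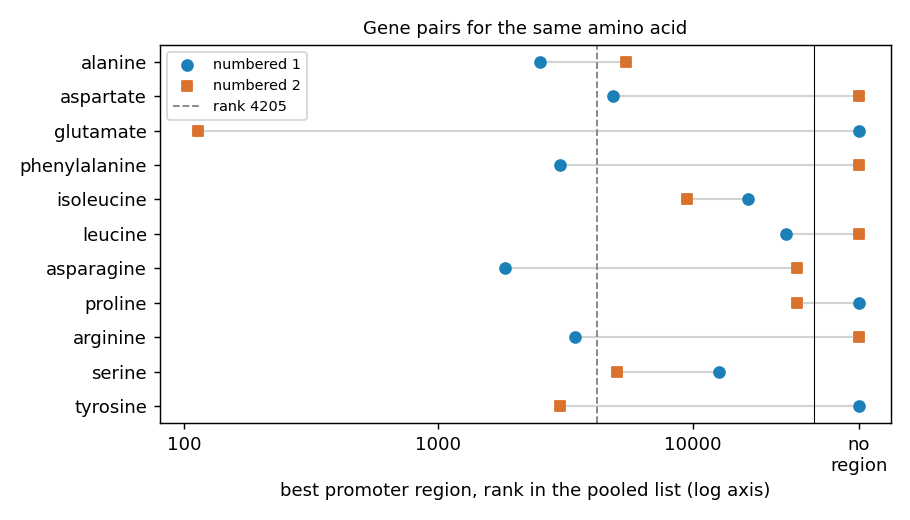
Rank of the best promoter region in the pooled list, on a log axis, for the gene numbered 1 and the gene numbered 2 of each of 11 amino acids. Genes with no pooled region are placed at the right, and the dashed line marks rank 4205, left of which lie 4 genes numbered 1 and 2 numbered 2.

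The number is not a sure guide to the compartment. In the RefSeq product names aars-1 is mitochondrial and aars-2 cytoplasmic, against the usual order. Of 10 members whose product is named cytoplasmic, 4 had a peak, mars-1, nars-1, rars-1 and tars-1 (40.0%, interval 12.2 to 73.8%). Of 4 named mitochondrial, 2 had one, ears-2 and aars-1 (50%, interval 6.76 to 93.2%), while pars-2 and rars-2 did not. The product names state no compartment for 18 members, of which 4 had a peak (22.2%, interval 6.41 to 47.6%). These shares stand beside 14.3% of all protein-coding genes. By product name the order of the shares is thus the reverse of that by number, and neither division separates beyond its intervals. Among the 9 amino acids with a gene numbered 1 alone, 4 of the genes had a peak (44.4%, against 14.3% of all protein-coding genes). These were kars-1, mars-1, tars-1 and vars-1, and cars-1, gars-1, hars-1, qars-1 and wars-1 had none. This class counts only symbols that fit the naming rule, and glp-4 is a valyl-tRNA synthetase gene outside it.

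The genes numbered 1 and 2 also differ in what lies upstream. A gene on the same strand ended within 1000 bp upstream of 4 of 20 genes numbered 1 and of 8 of 11 numbered 2, an arrangement common in worm operons, where a downstream gene can be transcribed from the promoter of the first. Operon annotation was not used here. In this arrangement 2 of 4 genes numbered 1 had a peak, vars-1 and rars-1, and 1 of 8 numbered 2, yars-2. With a divergent gene within 1000 bp, 3 of 9 genes numbered 1 and 1 of 2 numbered 2 had a peak. With neither, 3 of 7 genes numbered 1 and 0 of 1 numbered 2 had one. The part of this arrangement in the difference by number was not tested. Of the 8 members with no pooled region in a window, 5 had a same-strand gene ending within 1000 bp upstream, as did 13 of all 32 members and 5687 of 19973 protein-coding genes.

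The shares of all protein-coding genes also depend on the upstream neighbour. With a divergent gene within 1000 bp, 4 of 11 members had an optimal promoter peak (36.4%, interval 10.9 to 69.2%), against 31.0% of all genes so placed, which is close to the background. With a same-strand gene ending there, 3 of 13 members had one (23.1%, interval 5.04 to 53.8%), against 10.8%. With neither, 3 of 8 members had one (37.5%, interval 8.52 to 75.5%), mars-1, kars-1 and fars-1, against 10.8%. This class depends on the limit of 1000 bp and on counting only genes that lie wholly upstream. The gene T08B2.15, whose untranslated exon holds the fars-1 summit, was not counted as an upstream neighbour. The divergent genes rbm-5 and F58B3.6 lay just past it, 1042 bp from fars-1 and 1161 bp from mars-1, and both peaks were in their windows too. Members had 1.94 annotated start sites per gene on average and all genes 1.47. Windows of 1 gene can overlap, and their joint length was not measured. Among genes with 1 start site, 5 of 15 members (33.3%) and 11.7% of all genes had a promoter peak, and among those with 2 or more, 5 of 17 members (29.4%) and 21.7% of all genes.

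Several synthetase genes had optimal summits in the gene or within 5000 bp but outside their own promoter windows. There were 21 such summits at 12 members, of which 13 lay in a promoter window of another gene. The fars-1 gene held a summit of higher signal than its promoter peak, ranked 612 (signal 248), in an intron and 963 bp from the start of mrpl-23, a gene for a mitochondrial ribosomal protein. In nars-2 a summit ranked 3017 lay in an intron, 173 bp from the start of Y66D12A.24. Upstream of iars-2, an isoleucyl-tRNA synthetase gene, a summit ranked 766 (signal 222) lay 1814 bp from the start, in an intron of fath-1. The same summit was in the windows of nola-3 and C25A1.16, 596 bp from the nearer of their starts. Beyond the end of aars-2, at 705 bp, lay a summit ranked 374 (signal 309) in the window of cpn-3. With summits in the gene or within 5000 bp counted, 17 of 32 members had one (53.1%, interval 34.7 to 70.9%), against 38.6% of all protein-coding genes, 11 of 20 numbered 1 (55.0%) and 6 of 11 numbered 2 (54.5%). The shares by number were thus nearly equal at this distance.

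None of the 10 promoter peaks of the synthetase genes lay near a transfer RNA gene. The nearest tRNA gene was 51330 bp away, at fars-1, and the median distance was 139592 bp. Over all optimal peaks, in promoter windows or not, 5.68% had a tRNA gene within 100 bp of the summit. A count of 0 in 10 allows a share of up to 30%, which is above this, so nothing is read from it.

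Genes that act beside the synthetases were taken from a list of 25, covering tRNA processing and modification, the sensing of uncharged tRNA, the factors that carry charged tRNA to the ribosome, and glp-4, a valyl-tRNA synthetase gene outside the naming rule. Of these, 12 had an optimal promoter peak (48.0%, interval 27.8 to 68.7%), against 14.3% of all protein-coding genes. The list was chosen with earlier results of these data known, and the difference was not tested. Of the delivery factors, 4 had the highest ranks of the list and the other 3, eef-1B.2, tufm-2 and tufm-1, ranked lower. The genes eef-1A.1 and eef-1A.2, which encode the elongation factor that brings charged tRNA to the ribosome, had peaks ranked 103 (signal 522) and 172 (signal 421). Those of eef-1G and eef-1B.1, for subunits of its exchange complex, ranked 148 (signal 443) and 250 (signal 363), and that of eef-1B.2 ranked 1886 (signal 130). All 5 of these peaks ranked in the highest 4205 of both replicates. The peaks of eef-1A.1, eef-1G and eef-1B.1 lay in windows of rfc-4, ctf-4 and aco-2 as well.

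The sensors of uncharged tRNA also had peaks. The kinase gene gcn-2 ranked 2983 (signal 93.8), its activator gcn-1 ranked 1071 (signal 185), and atf-4, whose product is the transcription factor of this stress response, ranked 1797 (signal 134). At gcn-2 the replicates stood apart, with ranks of 6114 in replicate 1 and 2316 in replicate 2. Among processing and modification genes, mtcu-2 ranked 369 (signal 311), elpc-4 ranked 433 (signal 290, in the window of C26B2.7 too) and the splicing ligase gene rtcb-1 ranked 2185 (signal 119). The mitochondrial elongation factor gene tufm-2 ranked 1178 (signal 176), while tufm-1 ranked 4631 and had no optimal peak. The peaks of tufm-2 and gcn-2 lay in windows of exoc-7 and Y81G3A.1 as well, and that of atf-4 in the window of a gene with no symbol. The other 12 without an optimal promoter peak were alkb-8, arch-1, clpf-1, elpc-1, elpc-2, elpc-3, glp-4, hpo-31, mtcu-1, nsun-2, tut-1 and tut-2. The region of glp-4 ranked 5369, below vars-1, which ranked 2391.

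The count of synthetase genes depended on how many peaks were taken. Among optimal peaks above the median signal 4 members kept a peak (12.5%), ears-2, mars-1, kars-1 and nars-1, against 8.36% of all protein-coding genes. Peaks that overlapped the highest 4205 regions of both replicates left 7 members (21.9%), against 12.0% of all genes. No intervals were computed for these smaller counts, and their difference from the share of all genes was not tested. By the list of replicate 1 alone 10 members had a peak (31.3%), against 13.9% of all genes, with sars-2 added and yars-2 lost. By the list of replicate 2 alone 9 had one (28.1%), against 14.3%, with aars-2 added and rars-1 and tars-1 lost.

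**Figure D5:**
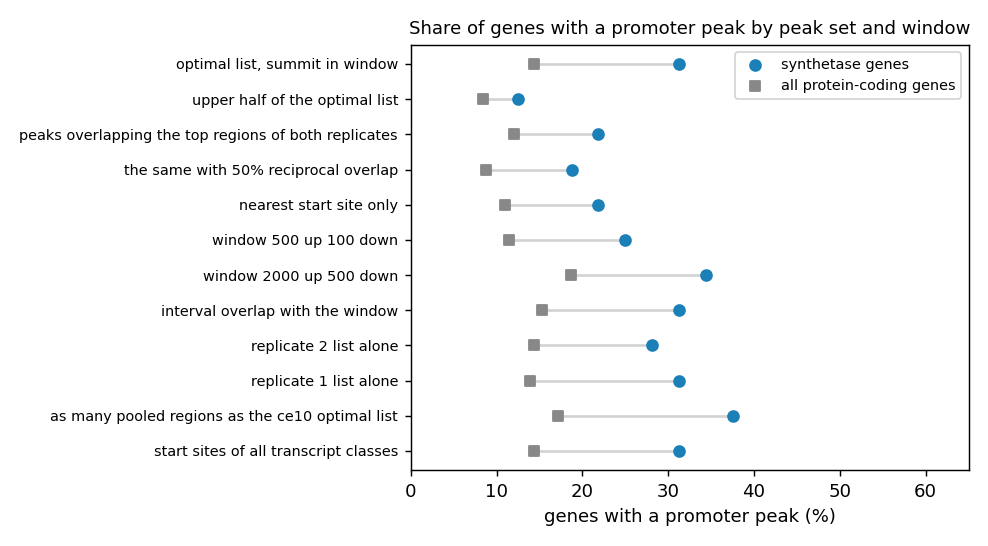
Share of synthetase genes and of all protein-coding genes with a promoter peak, in percent, under the main setting and 11 alternatives in peak set, window, assignment or start sites. The synthetase share ran from 12.5% to 37.5% and lay above that of all genes in each row, by least among optimal peaks above the median signal, where 4 of 32 members were counted. The rows share most of their peaks, no intervals are drawn, and the differences were not tested.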

How the data were processed

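The data are ChIP-seq peak lists of GFP-tagged SMA-3 in 2 biological replicates of L2 larvae. Per the file listing the authors deposited, each replicate list was derived from its own alignment and 1 control alignment, the pooled list from both alignments, and the optimal list by an irreproducible discovery rate (IDR) threshold. Neither aligner nor peak caller is named in the labels or files. The deposited signal per region is the authors' value. The deposited −log10 q took 1 value over all optimal peaks and ranked nothing.

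The ce11 lists were used with Ensembl release 115 and RefSeq sequence of WBcel235, in which every region ended within its chromosome. The ce10 optimal list of 5405 peaks gave only its length. Start sites, 29314 in number, were those of protein-coding transcripts of nuclear genes. The upstream neighbour was the nearest protein-coding gene lying wholly upstream. A replicate rank is that of the highest-signal region overlapping the pooled region by at least 1 bp. Window assignment and overlap were tested on simulated data. Every member was to be named. The members and lists, and the division by number, were chosen with earlier results of these data known, and no test was run. Computations used Python 3.11.15, scipy 1.17.1, numpy 2.4.6, pandas 2.3.3 and, for plots, matplotlib 3.10.9.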

Additional observations from a re-analysis of the deposited data

How the results depend on the processing

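The number of synthetase genes with a promoter peak stayed within 1.5 times of 10 in 9 of 11 alternatives. It was 4 among optimal peaks above the median signal and 6 with peaks reciprocally overlapping, by 50%, the highest regions of both replicates. Genes numbered 1 then had 3 and 5, genes numbered 2 had 1 and 1, and all protein-coding genes 1670 and 1762. With any overlap in both replicates genes numbered 2 had 1. With the nearest start site only, genes numbered 1 had 5. Grouped by product name, the cytoplasmic genes had 4 and the mitochondrial genes 2. In summit windows of about 2 times the width GGCGC was at 5 of 10 members and TGATAA at 1, against 30.5% and 33.8% of all optimal peaks. GTCTG and GAGAGA stayed at 2 of 10 each, against 36.9% and 43.3%. CAGACA stayed at 1 and CACGTG at 0, against 20.2% and 12.7%. Leaving out a replicate gave 9 to 10 members. Without replicate 1, 6 of 20 genes numbered 1 (30%) and 3 of 11 numbered 2 (27.3%) had a peak. Without replicate 2, the counts were 8 of 20 (40%) and 2 of 11 (18.2%). The share of all protein-coding genes was then 14.3% without replicate 1 and 13.9% without replicate 2. The 2 alternatives with more pooled regions (12 members, with dars-1 and sars-2) and with start sites of all transcript classes (10) were chosen after seeing the data. The member shares were 37.5% and 31.3%, against 17.2% and 14.4% of all protein-coding genes. No paired analysis was possible because there is 1 group. Unknown read depth limits every rank near the threshold.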
